A study of Mus musculus with 4 samples.

Results

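p53 and 9 genes known as its transcriptional targets (Cdkn1a, Mdm2, Ccng1, Bax, Bbc3, Phlda3, Sesn2, Eda2r and Zmat3) were examined in single cells of mouse brain tumors. The 10 genes were chosen by name as part of the p53 pathway, with earlier results of these data known. All 10 were among the 21861 features counted in the 4 libraries. p53, the protein of Trp53, is a transcription factor that accumulates after DNA damage or oncogenic stress and switches on genes that halt the cell cycle, repair DNA or trigger cell death. Among its targets is Mdm2, a ubiquitin ligase that in turn marks p53 for degradation. In glioma this pathway is commonly lost, and many of its targets also have inputs that do not need p53.

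The tumors came from hGFAP-cre::TP53Fl/Fl::lsl-MYCN mice, with 2 mice at an age of 43 days (P43, mouse 4 and mouse 5) and 2 mice at 70 days (P70, mouse 6 and mouse 7). Every mouse carried the same alleles, so that no tumor or brain with intact Trp53 served as a control, and the comparison rests on other cell types of the same tumor. Cre under the human GFAP promoter acts in radial glia and their offspring (neurons, astrocytes and oligodendrocytes), where it removes Trp53 and switches on human MYCN together with firefly luciferase (FLUC). Vessel and immune cells are not known to arise from radial glia, so that they served as the normal classes, but the counts do not test whether their Trp53 alleles were intact. Without thinning, 8.97% to 27.0% of mural cells held a FLUC UMI and 2.07% to 17.6% a humanNMYC UMI, the source of which was not tested. Tumor tissue was dissociated, depleted of red and of dying cells, and sequenced from the 3′ end of the mRNA with unique molecular identifiers (UMIs), so that each UMI stands for 1 captured molecule.

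After filtering, 3319, 1456, 2731 and 3469 cells of mice 4, 5, 6 and 7 were kept, with a median depth per library of 1419 to 10450 UMIs per cell. Cells were clustered without the p53 genes listed here. Clusters with at least 500 CPM (UMIs scaled to a common total of 1000000 per sum) of human MYCN plus FLUC and markers of the oligodendrocyte lineage were called OL-like tumor cells (2174, 237, 414 and 2144 cells). Normal classes with at least 20 cells in every mouse were endothelial cells (EC), mural cells, Myeloid cells, dendritic cells (DC) and T and NK cells (T/NK). Each class held all genes of its own marker list in every mouse, and the 7 EC markers, for example, summed to 11777 to 18814 CPM in EC and to 5.70 to 194 CPM in OL-like cells. The 8 markers of the oligodendrocyte lineage summed to 1715 to 2169 CPM in OL-like cells. In mature oligodendrocytes of mice 4, 5 and 7 (described below) they summed to 3788 to 4943 CPM. A further 8 markers of mature oligodendrocytes summed to 1033 to 2186 CPM in OL-like cells and to 10114 to 32013 CPM in mature oligodendrocytes of these mice. Some libraries stood apart. Genes of the Y chromosome reached 225 CPM in normal cells of mouse 4, labelled female, and 0.645 CPM in mouse 5, labelled male. The sex labels of the P43 mice thus went against the counts. The source of this mismatch, and whether the age labels are right, was not tested. Of the OL-like cells of mouse 4, 882 belonged to a shallow cluster with a median of 840.5 UMIs per cell. Without thinning, 46.7% of OL-like cells of mouse 4 held a FLUC UMI, against 87.7% to 94.6% in the other mice. Libraries shared 1 to 3 cell barcodes per pair. Normal cells of mouse 7 were few (22 T/NK cells, 36 EC and 37 mural cells), and a single UMI there is worth up to 39.3 CPM.

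What the assay can see of Trp53 itself follows from the gene's structure. Trp53 lies on chromosome 11 (mm10, 69580359 to 69591873, plus strand), and its transcript Trp53-201 has 11 exons. In the floxed allele of the line used, loxP sites follow exon 1 and exon 10, so that Cre removes exons 2 to 10 with 1082 of the 1161 coding bases. The last exon, at 69591350 to 69591873, stays in place with 79 coding bases followed by 445 bases of stop codon and 3′ UTR. Since 3′ libraries count the end of the mRNA, a Trp53 UMI in a tumor cell can come from a recombined allele, and its level does not check the deletion.

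**Figure D1:**
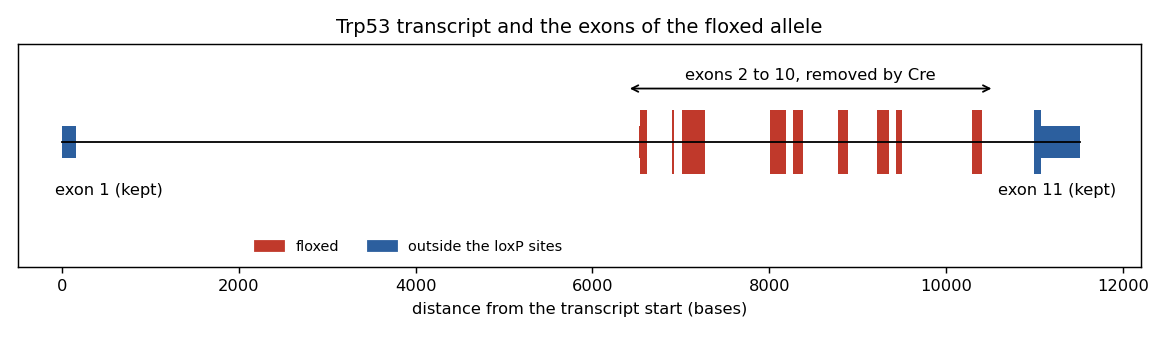
Exons of the transcript Trp53-201, drawn to scale by distance in bases from the transcript start, with coding parts taller than untranslated parts. Exons 2 to 10 (red) lie between the loxP sites, and exon 1 and exon 11 (blue) remain after recombination.

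For the targets, promoter windows from 250 bases before to 50 bases after each annotated start were taken from RefSeq (GRCm38.p6). Windows were found for 9 of the 10 genes, 12 windows in all. On both strands they were searched for CATGNNNNNNCATG, the cores of a p53 response element made of adjoining half-sites, and for the p53 half-site consensus. The first was present in 1 of the 12 windows, that of Cdkn1a, against 0.712% of all 32851 windows. At least 1 half-site was present in 5 of the 12 windows, against 8.36% of all windows. The matches are shown because they stand before the genes whose levels are compared here, with the pair of cores in capitals for Cdkn1a and the half-site in capitals for the others, each on its gene's strand.
Cdkn1a: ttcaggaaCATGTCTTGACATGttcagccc
Trp53: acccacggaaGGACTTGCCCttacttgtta
Mdm2: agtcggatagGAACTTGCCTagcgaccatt
Ccng1: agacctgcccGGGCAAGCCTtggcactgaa
Bax: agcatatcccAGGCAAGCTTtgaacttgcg
The Cdkn1a stretch is chr17:29090923-29090952 (plus strand). Its cores begin at position -48 from the annotated start of this window, overlapping a half-site that begins at -51. This start lies at the upstream end of the annotated gene (29090976 to 29100727), and a gene can have more than 1 start. A further half-site of Cdkn1a begins at -73. The other stretches are chr11:69580274-69580303 (plus strand) for Trp53, chr10:117710925-117710954 (minus strand) for Mdm2, chr11:40755452-40755481 (minus strand) for Ccng1 and chr7:45467080-45467109 (minus strand) for Bax. A match describes these letters only and is no measured binding.

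Among the 9 genes tested, the widest difference between tumor cells and the normal cells of the same mouse was that of Cdkn1a, which encodes the cyclin-dependent kinase inhibitor p21. Cdkn1a was nearly absent from OL-like cells and higher in vessel and immune cells, at 17.4 (a mural sum) to 475 CPM. It was also low in mature oligodendrocytes, at 0 to 16.5 CPM in 3 mice, so that a low level was not particular to OL-like cells. Trp53 and Ccng1 were also lower in OL-like cells, Phlda3 was higher, and Bax and Bbc3, which promote apoptosis, did not pass the test. In this comparison UMIs were summed per mouse and class, and the OL-like sums were set against the mean of the 5 normal classes with mouse as a block (edgeR's quasi-likelihood test, Benjamini-Hochberg adjustment over 10474 genes). Of the 10 genes 9 passed the filter on low counts, and of these 2 were higher and 4 lower at an adjusted p under 0.05. Over all genes tested, 37.5% were higher and 27.4% lower, so that being called was common in this contrast. The median log2 fold change of the 9 was -0.36, beside 0.13 over all genes tested.

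**Figure D2:**
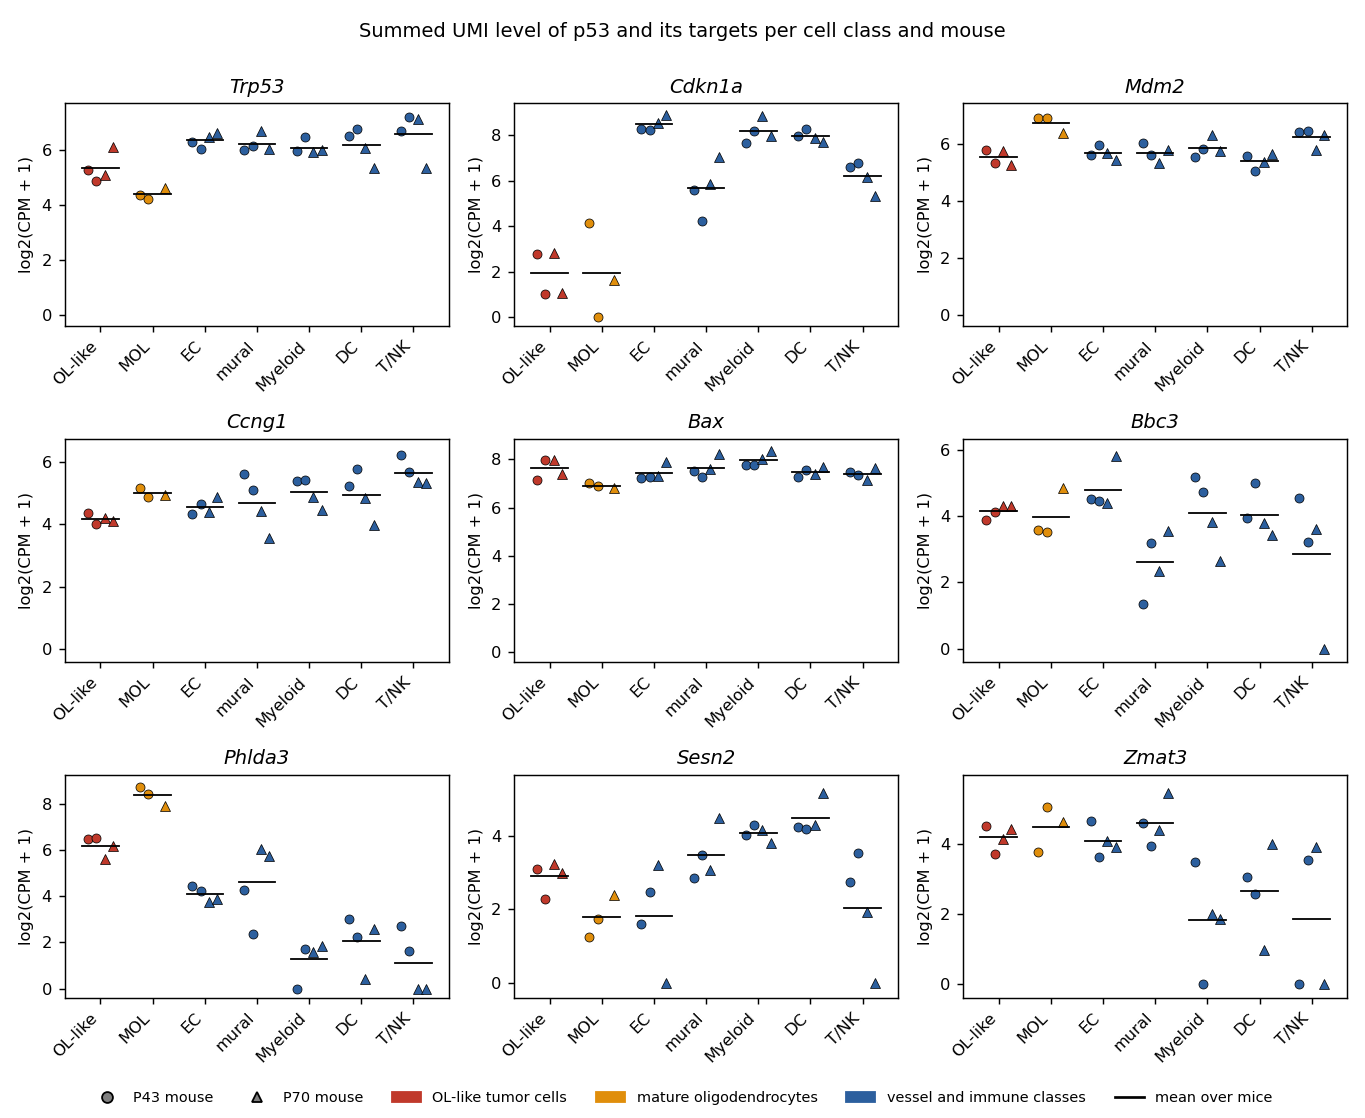
Level of 9 genes as log2(CPM + 1) of the summed UMIs of a class in each mouse (circles P43, triangles P70, line mean over mice), for classes with at least 20 cells. Cdkn1a of OL-like cells lies at 1.02 to 6.09 CPM, below all 20 sums of vessel and immune classes, whereas Bax overlaps between OL-like cells and the other classes.

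In OL-like cells of mice 4, 5, 6 and 7, the Cdkn1a level was 5.87, 1.02, 6.09 and 1.07 CPM, from 57, 5, 26 and 30 UMIs. In EC it stood at 303, 299, 367 and 475 CPM, and in Myeloid cells at 199, 292, 464 and 248 CPM. DC held 249, 303, 234 and 207 CPM. These 3 classes overlapped with each other and lay above the remaining classes. T/NK cells held 96.0, 107, 70.3 and 39.3 CPM (the last from 1 UMI), and mural cells 46.5, 17.4, 55.9 and 128 CPM, so that the ranges of T/NK and mural cells overlapped. OL-like cells were below all 20 normal sums, which 2.87% of the genes tested were. The fitted difference was -5.75 (log2, SE 0.50, adjusted p = 7.25e-10), a 53.8-fold lower level. Against single classes it ranged from -3.73 (SE 0.53, adjusted p = 2.89e-06) for mural cells to -6.93 (SE 0.55, adjusted p = 1.85e-10) for Myeloid cells, and each of the 5 contrasts passed the test.

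The few Cdkn1a molecules of OL-like cells were set beside those of EC. Relative to EC of the same mouse, the Cdkn1a level of OL-like cells was 1.94%, 0.343%, 1.66% and 0.226% in mice 4 to 7. The 7 EC markers in OL-like cells, which such cells should lack, had medians of 1.11%, 0.197%, 0.155% and 0.022% of their EC level. The Cdkn1a shares were thus above the marker medians in all 4 mice, and above the highest of the 7 markers in mice 4 and 6 (1.30% and 0.375%) but not in mice 5 and 7 (0.876% and 0.394%). The EC markers do not cover RNA from Myeloid cells or DC, whose Cdkn1a levels overlapped with those of EC. The 8 myeloid markers summed to 14.5, 3.48, 58.3 and 4.12 CPM in OL-like cells of mice 4 to 7. In Myeloid cells they summed to 7914 to 12442 CPM. The 8 DC markers summed to 1.96, 0.61, 12.4 and 1.22 CPM in OL-like cells and to 1269 to 1745 CPM in DC. The part that RNA from other cells has in the Cdkn1a level of OL-like cells was not tested. Per cell, after thinning each cell to 2000 UMIs, 9 of 776, 0 of 220, 6 of 336 and 6 of 2121 OL-like cells held a Cdkn1a UMI. This is 1.16% (95% exact binomial interval 0.532% to 2.19%), 0 (which allows up to 1.36%), 1.79% (0.658% to 3.85%) and 0.283% (0.104% to 0.615%). Of EC at the same depth, 37.1% (30.5% to 44.2%), 39.7% (34.9% to 44.7%) and 37.6% (29.8% to 45.9%) held one in mice 4, 5 and 6, and 2 of 9 EC did in mouse 7. The intervals cover counting error only. Without thinning, the Cdkn1a shares of OL-like cells were 2.21%, 2.11%, 5.56% and 1.26%. Those of EC were then 36.4%, 53.5%, 51.9% and 27.8%, and those of mural cells 2.41%, 4.15%, 12.7% and 18.9%. The mural shares of mice 4 and 5 were thus near those of OL-like cells, and unthinned depth per cell differed between the classes.

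Trp53 was lower in OL-like cells but far from absent. Its level there was 37.6, 27.9, 33.3 and 68.6 CPM, in the same order of mice. EC held 76.5, 64.7, 87.3 and 97.8 CPM, and T/NK cells 102, 145, 138 and 39.3 CPM. The mural values were 62.0, 69.8, 101 and 64.2 CPM, Myeloid cells 61.2, 86.5, 59.7 and 62.7, and DC 90.3, 106, 66.1 and 39.5. In mice 4, 5 and 6 every normal class was above the OL-like cells of that mouse. In mouse 7 the OL-like level was above Myeloid cells, mural cells, DC and T/NK cells, of which T/NK rest on 1 UMI, mural cells on 6 and DC on 8. The fitted difference was -1.09 (SE 0.25, adjusted p = 0.000571), that is 2.13-fold lower. By class it lay between -0.75 (SE 0.32, adjusted p = 0.0480) for mural cells and -1.55 (SE 0.33, adjusted p = 0.000480) for T/NK cells. At 2000 UMIs per cell, 6.83%, 4.55%, 4.76% and 13.1% of OL-like cells held a Trp53 UMI, and unthinned 11.8%, 37.6%, 22.7% and 52.1%. Of EC at 2000 UMIs, 11.9%, 11.6% and 17.4% held one in mice 4, 5 and 6, and 1 of 9 EC did in mouse 7.

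The other tumor cell groups of the P70 mice also held little Cdkn1a while holding Trp53. Neuroblast-like (NB-like) tumor cells, 28 in mouse 6 and 587 in mouse 7, held Cdkn1a at 4.19 and 4.35 CPM and Trp53 at 62.9 and 73.6 CPM. Astrocyte-like (AC-like) tumor cells, 50 and 201, held Cdkn1a at 13.4 and 0.710 CPM (4 UMIs and 1 UMI) and Trp53 at 84.0 and 102 CPM. Phlda3 differed between the groups, at 0 to 6.23 CPM in NB-like cells and 53.3 to 97.5 CPM in AC-like cells. In OL-like cells of all mice it stood at 48.9 to 92.0 CPM, so that a high Phlda3 level was not shared by all tumor cell groups. These groups had at least 20 cells in the P70 mice alone and were not tested.

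**Figure D3:**
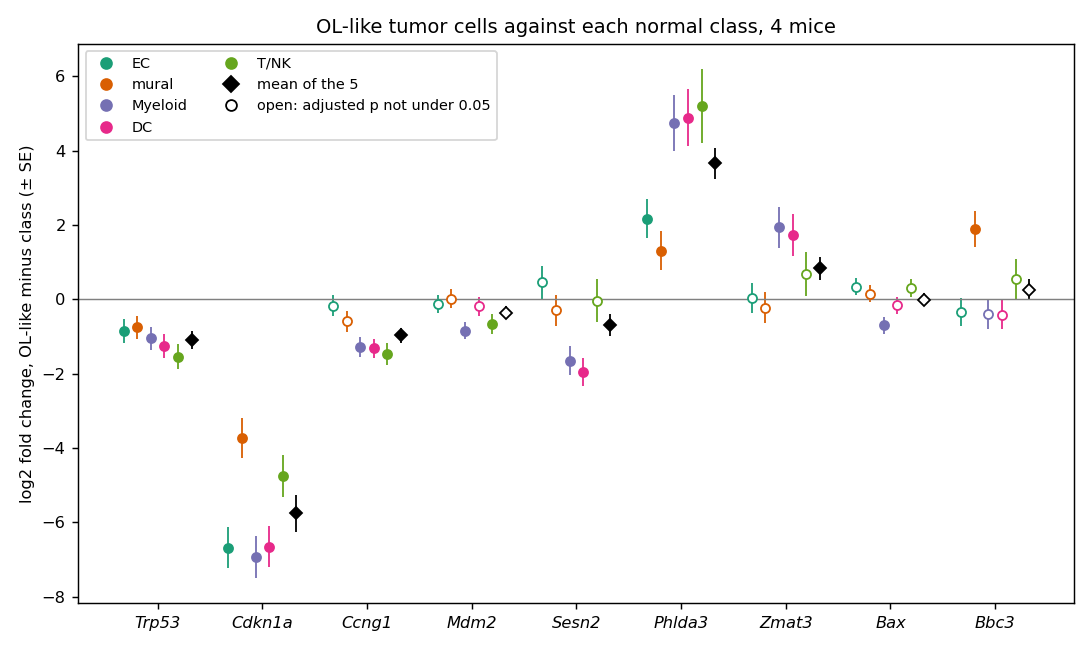
Log2 fold change of OL-like cells against each normal class and against the mean of the 5 (black), with SE bars, 4 mice. Filled symbols have an adjusted p under 0.05. Cdkn1a is below 0 and Phlda3 above 0 for every class, while Mdm2, Bax and Bbc3 lie around 0 for most.

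Phlda3, a pleckstrin homology domain protein that restrains Akt signalling, went the other way. OL-like cells held 88.4, 92.0, 48.9 and 71.1 CPM in mice 4 to 7. EC held 21.1, 17.8, 12.5 and 14.0 CPM. Mural levels were 18.6 and 4.10 CPM at P43 and 66.6 and 53.5 CPM at P70, the last from 5 UMIs. Myeloid cells, DC and T/NK cells stayed between 0 and 7.22 CPM. OL-like cells thus exceeded EC, Myeloid cells, DC and T/NK cells in every mouse, whereas mural cells of mouse 6 were above OL-like cells of that mouse. The fitted difference was 3.66 (SE 0.41, adjusted p = 5.14e-08), 12.6-fold, and ranged from 1.30 (SE 0.53, adjusted p = 0.0402) against mural cells to 5.19 (SE 0.99, adjusted p = 0.000126) against T/NK cells. Since T/NK cells gave 2 UMIs in all, the size of that last value depends on the prior count of the fit.

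The remaining genes moved less and not against every class. Ccng1, the cyclin G1 gene, stood at 15.2 to 19.6 CPM in OL-like cells and at 10.7 to 73.4 CPM in the normal sums, a difference of -0.97 (SE 0.21, adjusted p = 0.000250). It was lower than in Myeloid cells, DC and T/NK cells, and missed the threshold against mural cells (-0.60, adjusted p = 0.0672) and EC (-0.17, adjusted p = 0.618). Sesn2, a stress-induced inhibitor of mTORC1 signalling, stood at 3.89 to 8.43 CPM in OL-like cells and at 0 to 34.6 CPM in the normal sums, a difference of -0.70 (SE 0.30, adjusted p = 0.0458). Its contrasts with Myeloid cells (-1.65) and DC (-1.96) passed the test, and those with EC (0.45), mural cells (-0.30) and T/NK cells (-0.03) did not. Without DC among the normal classes the Sesn2 difference was -0.30 (adjusted p = 0.470). Zmat3, an RNA-binding zinc finger gene, stood at 12.1 to 21.8 CPM in OL-like cells and at 0 to 42.8 CPM in the normal sums, a difference of 0.83 (SE 0.32, adjusted p = 0.0251). Zmat3 was higher than in Myeloid cells (1.94) and DC (1.74) only among the 5 classes, and its call was lost when mouse 4 (adjusted p = 0.114), mouse 5 (0.0516) or mouse 6 (0.0822) was left out.

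Mdm2 stood at 54.1, 39.4, 52.9 and 37.5 CPM in OL-like cells and at 32.1 to 86.0 CPM in the normal sums. Its difference of -0.36 (SE 0.18, adjusted p = 0.0853) did not pass, although the contrasts with Myeloid cells (-0.84, adjusted p = 0.00391) and T/NK cells (-0.67, adjusted p = 0.0381) did. Bax, whose protein permeabilizes mitochondria, stood at 141, 250, 251 and 167 CPM in OL-like cells and at 141 to 322 CPM in the normal sums. The Bax difference was -0.01 (SE 0.17, adjusted p = 0.978), and it was lower than in Myeloid cells alone (-0.70, adjusted p = 0.0104). Bbc3, the gene of the BH3-only protein Puma, stood at 13.9 to 18.9 CPM in OL-like cells and at 0 to 55.9 CPM in the normal sums, a difference of 0.26 (SE 0.29, adjusted p = 0.452). Bbc3 was higher than in mural cells alone (1.90, adjusted p = 0.00178). Eda2r, a receptor of the TNF receptor family, had 7 UMIs in all OL-like cells and 3 in all normal sums, too few to test, and NB-like cells of mouse 7 held 16 (1.88 CPM).

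Counted by class, OL-like cells had 1 of the 9 genes higher and 2 lower against EC, where 30.0% and 27.5% of all genes were higher and lower. Against mural cells 2 were higher and 2 lower (27.3% and 26.5% of all genes), and against Myeloid cells 2 were higher and 6 lower (33.8% and 27.6%). Against DC 2 were higher and 4 lower (32.4% and 27.4%), and against T/NK cells 1 was higher and 4 lower (30.0% and 21.5%). Read against these shares, the count of lower genes was farthest from the background for Myeloid cells. Of the 9 genes, Cdkn1a, Trp53 and Phlda3 were called in the same direction against each of the 5 classes. The share of all genes called in this way was not computed, so that their number cannot be set against a background.

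The nearest normal lineage is the mature oligodendrocyte (MOL), which 3 mice held in sufficient number (62, 61 and 69 cells in mice 4, 5 and 7). hGFAP-cre also acts in this lineage, so that the Trp53 state of MOL is not known. In MOL of mouse 7, FLUC stood at 344 CPM and human MYCN at 175 CPM, against 15.3 CPM or less of either in mice 4 and 5. This MOL sum thus held RNA of reporter-positive cells. Without thinning, 59.4% of MOL of mouse 7 held a FLUC UMI and 69.6% a Cdkn2a UMI. The reporter limit was applied to the whole MOL cluster, which stood at 143 CPM. Whether MOL of mouse 7 are normal cells was not tested. Cdkn1a in MOL, at 16.5, 0 and 2.13 CPM from 12, 0 and 1 UMIs, lay below all normal sums, as it did in OL-like cells, and was too low for the test. Of the 8 genes tested, 1 was higher in OL-like cells (21.5% of 10292 genes were) and 3 were lower (18.4% of genes were). Phlda3 reached 437, 350 and 243 CPM in MOL, the highest levels of any class tested, and was 4.16-fold lower in OL-like cells (-2.06, SE 0.24, adjusted p = 0.000821). Mdm2 stood at 119, 120 and 83.2 CPM in MOL and was lower in OL-like cells by -1.35 (SE 0.23, adjusted p = 0.00327). Ccng1 was lower by -0.92 (SE 0.29, adjusted p = 0.0370), with 34.5, 28.3 and 29.9 CPM in MOL. Trp53 stood at 19.3, 17.7 and 23.5 CPM in MOL, the lowest of the classes tested, and was higher in OL-like cells by 0.996 (log2, SE 0.30, adjusted p = 0.0323). Phlda3 and Trp53 therefore took opposite directions against MOL and against vessel and immune cells. The Trp53 call was lost without mouse 4 (adjusted p = 0.133), mouse 5 (0.0665) or mouse 7 (0.105), and when cells were thinned (0.449). The Ccng1 call was lost without mouse 4 (adjusted p = 0.184) or mouse 5 (0.172). Oligodendrocyte precursor cells formed a further cluster under the reporter limit (253 CPM), with 22 cells in mouse 5 and 112 in mouse 7. In these sums Cdkn1a stood at 4.8 to 7.1 CPM, from 3 UMIs in all, and Phlda3 at 21.4 to 62.8 CPM. This class was not tested.

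Other genes of the pathway were read from a list of 40 further p53 targets, also chosen with earlier results of these data known. Of the 40, 38 were among the features and 27 were tested against the normal classes. Of these, 5 were higher and 13 lower in OL-like cells, with 9 not called, where 37.5% of all genes tested were higher and 27.4% lower. Their median log2 fold change was -0.48, beside 0.13 over all genes tested. The 13 that were lower include Btg2, Plk2, Plk3 and Gadd45a, which act on the cell cycle, Pmaip1, Fas, Apaf1 and Trp53inp1, which act in cell death, Sesn1 and Steap3, which act in stress metabolism and iron uptake, the translesion polymerase gene Polk, the reductase gene Dcxr and the costimulatory gene Cd80. Btg2, an antiproliferative gene, stood at 30.4 to 51.6 CPM in OL-like cells and at 477 to 1457 CPM in the normal sums, without overlap, a difference of -4.24 (SE 0.30, adjusted p = 2.61e-11). Pmaip1 (the BH3-only gene Noxa, -5.01, SE 0.53) and the death receptor gene Fas (-4.97, SE 0.47) had larger differences but overlapped with single normal sums, and were singled out after their values had been seen. Pmaip1 was concentrated in DC (173 to 217 CPM) and Myeloid cells (70.6 to 148 CPM), and Fas in EC (69.8 to 140 CPM). The 5 genes that rose were Zfp365, Rps27l, Fdxr, Ei24 and Triap1. Zfp365, which acts in genome stability, stood at 97.3, 82.2, 114 and 52.1 CPM in OL-like cells and at no more than 10.8 CPM in the normal sums (5.10, SE 0.32, adjusted p = 4.15e-12). MOL held Zfp365 at 124, 97.7 and 36.3 CPM as well, and held Btg2 at 23.5 to 38.9 CPM and 1 UMI each of Pmaip1 and Fas, so that for these 4 genes the level of MOL was on the side of OL-like cells. Rps27l rose by 1.27 (SE 0.21) and the other 3 by 0.43 to 0.90. By class, the list had a median of -0.83 against EC, -0.83 against mural cells, -0.23 against Myeloid cells and -0.36 against T/NK cells. Against DC its median was 0.15, beside 0.175 over all genes. Against MOL, 28 of the list were tested, with 5 higher and 5 lower (21.5% and 18.4% of all genes were). The median there was -0.18, beside 0.11 over all genes.

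**Figure D4:**
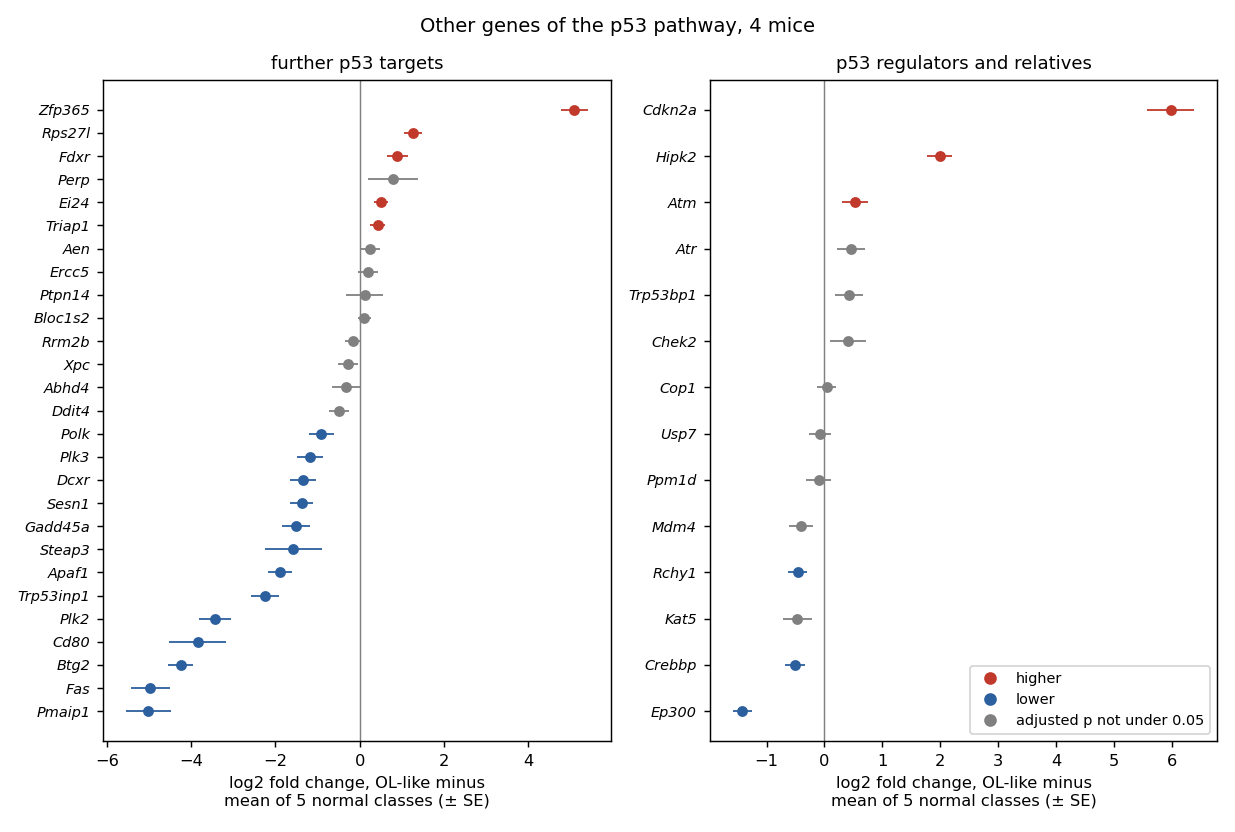
Log2 fold change of OL-like cells against the mean of the 5 normal classes, with SE bars, for 27 further p53 targets and 14 regulators and relatives of p53 that passed the filter (red higher, blue lower, gray not called). Pmaip1, Fas and Btg2 lie lowest among the targets, and Cdkn2a lies highest among the regulators.

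Of 17 regulators and relatives of p53, 14 were tested, with 3 higher and 3 lower and a median of -0.02. Both counts are no more than the shares over all genes (37.5% higher and 27.4% lower) give for 14 genes. Cdkn2a, whose product Arf inhibits Mdm2 and whose product p16 inhibits cyclin-dependent kinases, stood at 279, 225, 245 and 328 CPM in OL-like cells. In the normal sums Cdkn2a was at or below 12.3 CPM, apart from DC (49.4 CPM) and Myeloid cells (15.7 CPM) of mouse 7. All OL-like sums of Cdkn2a lay above all normal sums, which 11.5% of the genes tested did, and the difference was 5.98 (SE 0.41, adjusted p = 1.70e-11). The counts do not tell its transcripts apart. In MOL, Cdkn2a gave 0 CPM for mouse 4, 2.35 for mouse 5 and 301 for mouse 7, the library whose MOL carried reporter RNA. Hipk2, a kinase that phosphorylates p53, rose by 1.99 (SE 0.22, adjusted p = 3.73e-08) and Atm, the kinase that responds to DNA breaks, by 0.53 (SE 0.22, adjusted p = 0.0397). The acetyltransferase genes Ep300 (-1.42, SE 0.17, adjusted p = 8.99e-08) and Crebbp (-0.51, SE 0.17, adjusted p = 0.0112) and the ubiquitin ligase gene Rchy1 (-0.46, SE 0.16, adjusted p = 0.0175) were lower. Mdm4, the relative of Mdm2, was not called (-0.40). The transgene itself was used to choose tumor clusters and is described only: human MYCN (humanNMYC in the files) stood at 225, 1283, 1398 and 694 CPM and FLUC at 607, 1901, 1742 and 1074 CPM in OL-like cells, lowest in mouse 4.

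Across the 24 sums of OL-like and normal classes, which share libraries within a mouse, the genes whose log2(CPM + 1) followed Cdkn1a most closely were Iqgap1 (Pearson r = 0.94), Slfn5 (0.92), Zfp36 (0.92), Ucp2 (0.92) and Sdcbp (0.92). Their mean levels in OL-like cells were 5.57 to 42.6 CPM, below those of each normal class. Zfp36 is an immediate early gene that dissociation of tissue can induce, and stood at a mean of 9.79 CPM in OL-like cells and of 197 to 766 CPM in the normal classes; the part of dissociation in the Cdkn1a levels was not tested. For Trp53 they were Tram1 (r = 0.82), Abca7 (0.77), Erap1 (0.76), Efr3a (0.76) and Anxa6 (0.76). Between Cdkn1a and Trp53 themselves r was 0.50. Cdkn1a and Mdm2 had an r of 0.14 and Cdkn1a and Phlda3 one of -0.53, so that the targets did not vary as 1 group over cell classes. These values are descriptions over 24 sums of 4 mice.

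Between P43 and P70, none of the 9 tested genes was called in OL-like cells. The comparison has 2 mice per age, 0 of 11694 genes (0.0%) were called by edgeR and 536 had an unadjusted p under 0.05, while DESeq2 called 49 genes and none of the 9. The only one of the 9 with an unadjusted p under 0.05 was Phlda3, at 88.4 and 92.0 CPM in the P43 mice and 48.9 and 71.1 CPM in the P70 mice (-0.64, SE 0.23, edgeR's adjusted p = 0.9999). The Phlda3 levels of the ages did not overlap, which 2 mice per age can also give without an age effect. No share of genes without overlap was computed for this comparison. Trp53 followed with 0.58 (SE 0.37), where mouse 7 was high and mouse 6 lay within the P43 range. Cdkn1a was at 5.87 and 1.02 CPM at P43 and at 6.09 and 1.07 CPM at P70, with a mouse near 6 and a mouse near 1 at each age (-0.09, SE 1.15). Mdm2, Ccng1, Bax and Zmat3 differed by -0.10 to 0.06, and Bbc3 and Sesn2 by 0.25 and 0.37.

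**Figure D5:**
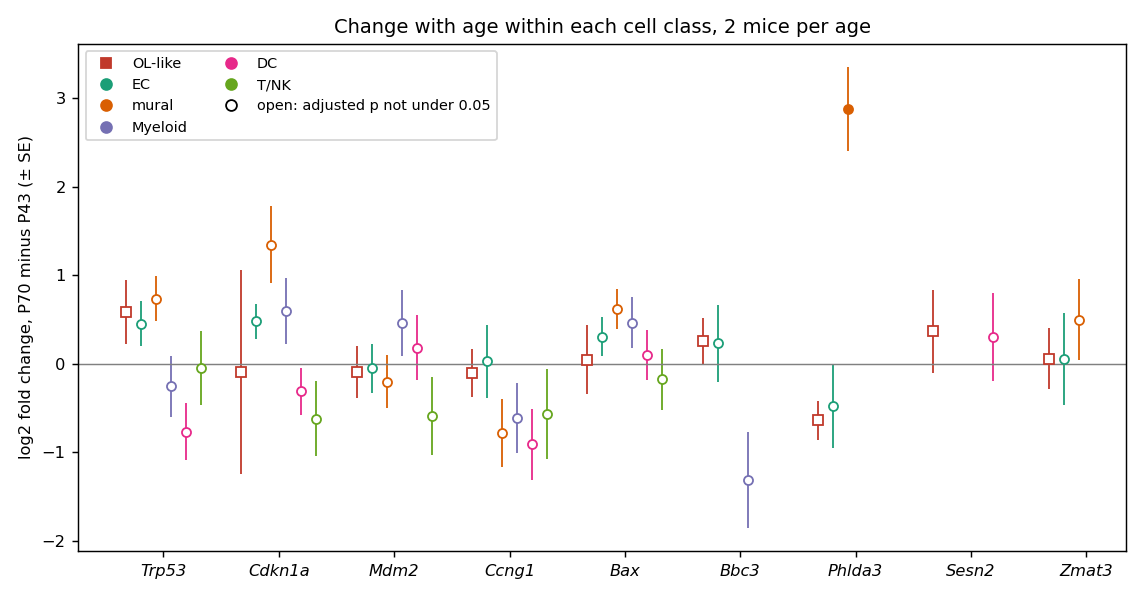
Log2 fold change from P43 to P70 within OL-like cells (squares) and each normal class (circles), with SE bars, 2 mice per age. Only genes that passed the filter in a class are drawn. Phlda3 in mural cells, at 2.88, is the single filled symbol (adjusted p under 0.05).

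In the normal classes the same test called 1 of these genes, in mural cells. There 7 of the 10 genes were tested, so that 1 call is no more than the share of all genes called there gives. Phlda3 rose in mural cells from 18.6 and 4.10 CPM (12 and 4 UMIs) at P43 to 66.6 and 53.5 CPM (81 and 5 UMIs) at P70, by 2.88 (SE 0.47, adjusted p = 0.00102), where 19.4% of 8600 genes were called. The call was lost without mouse 6 (adjusted p = 0.472) and without mouse 7 (adjusted p = 0.121). FLUC, the reporter of the tumor cells, rose in mural cells as well, from 49.6 and 51.3 CPM at P43 to 89.6 and 171 CPM at P70 (1.25, SE 0.29, adjusted p = 0.0104). Human MYCN (humanNMYC) rose by 2.45 (SE 0.45, adjusted p = 0.00227), from 9.29 and 16.4 CPM to 72.3 and 10.7 CPM, the last from 1 UMI. The part of tumor cell RNA in the Phlda3 difference was not tested. Without the mural cluster led by the fibroblast gene Dcn the Phlda3 difference was 2.35 (adjusted p = 0.00183). Cdkn1a in mural cells differed by 1.35 (SE 0.44, adjusted p = 0.0512). In EC, Cdkn1a differed by 0.48 (SE 0.20, adjusted p = 0.168) and none of 8 genes was called (9.55% of 8845 genes were). In Myeloid cells none of 6 was called (0.192% of 5204 genes were), in DC none of 6 (1.44% of 6095) and in T/NK cells none of 5 (0.412% of 4612).

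Whether the change with age differs between OL-like and normal cells was tested by an interaction term. None of the 9 genes was called, 1 of 11521 genes was (0.00868%), and 721 had an unadjusted p under 0.05. On simulated counts this test recovered 60% of the changed genes, so that it can miss a change. The differences of the 9 ranged from -0.70 (Cdkn1a, SE 0.68) to 0.76 (Bbc3, SE 0.54). With 2 mice per age, differences of that size cannot be told from the spread that remains among the sums.

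Within the tumor, cells in the cell cycle were compared with other OL-like cells, since Cdkn1a and other targets act on the cell cycle. Cells with at least 2 of 8 cell cycle genes made up 44.3%, 69.6%, 51.9% and 63.2% of OL-like cells in mice 4 to 7. Of the 9 genes tested, 1 was lower in cycling cells (8.04% of 10619 genes were) and 0 were higher (8.0% of genes were), and 4 had an unadjusted p under 0.05. Phlda3 stood at 65.5, 85.1, 43.3 and 67.5 CPM in cycling cells and at 146, 119, 63.5 and 80.0 CPM in the others. It was lower in cycling cells of every mouse, by -0.61 (SE 0.14, adjusted p = 0.0188), and the adjusted p was 0.0715 without mouse 5 and 0.0645 without mouse 6. The Cdkn1a levels were 3.32, 0.774, 5.86 and 1.01 CPM in cycling cells (23, 3, 18 and 20 UMIs) and 12.3, 1.99, 6.69 and 1.23 CPM in the others (34, 2, 8 and 10 UMIs). Cdkn1a was thus lower in cycling cells of 4 of 4 mice, but its difference of -0.96 (SE 0.38, adjusted p = 0.123) did not pass. Bbc3 (-0.47, adjusted p = 0.0630), Mdm2 (-0.36, adjusted p = 0.105) and Zmat3 (-0.23, adjusted p = 0.36) did not pass either, although their levels were lower in cycling cells of all 4 mice. The share of all genes lower in all 4 mice was not computed. With each cell thinned to 2000 UMIs, since depth per cell differed between the states, the Phlda3 difference was -0.55 (adjusted p = 0.0254).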

How the data were processed

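Single-cell 3′ libraries (10x chemistry) of 4 tumors, 1 per mouse, were analysed. As deposited, the matrices hold raw UMI counts per gene and barcode, made by the authors with Cell Ranger 6.0.2 on mm10 (per the submitters' processing notes) with human MYCN and FLUC added. P43 replicates 1 and 2 are mouse 4 and mouse 5, and P70 replicates 1 and 2 are mouse 6 and mouse 7. Replicates are separate mice. For age within a class, the p-values measure the spread between mice. Where mouse is a block, they measure the spread that remains among the sums once mean differences between mice are removed.

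Barcodes with at least 200 genes, at most 40000 UMIs and at most 25% mitochondrial UMIs were kept, of 1739 to 3693 barcodes (13106786 to 40621958 UMIs) per library. The UMI limit stood in for a doublet caller. Cells were clustered in Seurat 5.3.0 (anchor integration, 2000 variable genes without the p53 lists, 30 components, resolution 0.5). Clusters under the reporter limit of 500 CPM were named where at least 3 marker genes were 2-fold above all other clusters. Clusters over the limit were compared with the EC, mural, Myeloid, DC, T/NK and B cell clusters alone. Of the lists that passed, the one with most markers among a cluster's leading genes gave the name. The reporter limit and these naming limits were set after the data had been seen. A reporter-positive cluster of low depth (104 cells, median 955.5 UMIs) stayed unassigned. Another (964 cells, median 840.5 UMIs) was kept as OL-like, and 882 of its cells came from mouse 4. UMIs were summed per mouse and class and tested with edgeR 4.0.16 (R 4.3.3; TMM, filterByExpr, quasi-likelihood test, Benjamini-Hochberg adjustment over all genes tested, threshold 0.05), with mouse as a block where classes or states of the same mouse are compared, since these share an animal. SEs are the log2 fold change divided by the root of the F statistic. Tests were checked on counts simulated at a set dispersion of 0.05, with 200 genes changed 4-fold. Of these, 99% were recovered against the normal classes, 95.5% for age in OL-like cells and 100% for cycling cells. Against MOL 88% were recovered, and 60% for the difference in age change, with 1 to 11 unchanged genes called per comparison. Against the normal classes, against MOL and for cycling cells, a gene was simulated at the same mean share of UMIs in every sum, unlike in the real classes. The shares recovered do not cover genes of wider spread, such as Cdkn1a for age in OL-like cells (SE 1.15). Alternatives included DESeq2 1.42.0, other scaling, filters, cell limits and leaving out each mouse. Shares of cells were computed after thinning to 2000 UMIs, and a count of 0 was given the limit of 3 counts.

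All 10 genes are named. Of the further targets, up to 5 rises and 5 falls were named among those called without overlap between OL-like and normal sums, with every regulator called. Further names were chosen after their values had been seen. The members and lists were chosen with earlier results of these data known.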

Additional observations from a re-analysis of the deposited data

Results flagged for a closer look

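Abcb1a, the gene of a drug efflux pump of the vessel wall and no p53 gene, was the single gene whose change with age differed between OL-like cells and the mean of the normal classes by the interaction test, with a difference of -8.27 (log2, SE 1.02, edgeR's adjusted p = 0.000916). Its levels were 14.3 and 2.25 CPM at P43 and 0.703 and 0 CPM at P70 in OL-like cells, 1255 and 1293 CPM at P43 and 553 and 601 CPM at P70 in EC, and 3.1 and 2.05 CPM at P43 and 27.9 and 21.4 CPM at P70 in mural cells. In the same order it stood at 0 and 0 and at 14.8 and 7.84 CPM in Myeloid cells, at 7.22 and 1.24 and at 17.7 and 24.7 CPM in DC, and at 56.5 and 21.0 and at 78.7 and 118 CPM in T/NK cells. The size of the difference depends on sums of 0 UMIs (OL-like cells of mouse 7 and Myeloid cells at P43) and on the prior count of the fit. The summed 7 EC markers in OL-like cells moved with it, at 194 and 36.7 CPM at P43 and 19.0 and 5.70 CPM at P70, and the part of EC RNA in the Abcb1a level of OL-like cells was not tested. No p53 gene was picked out in this way.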

How the results depend on the processing

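Of 822 values recomputed under alternatives, 703 were counted as the same and 73 counts of genes or values of single mice as moved. Of the calls, 38 were lost, 8 were gained and 0 called values changed sign. Same means an unchanged call for a fold change, and a change within 1.5 times for a count of genes. A fold change that was not called could change sign and still count as the same. Examples are Bax against the normal classes (-0.17 to 0.18) and Cdkn1a for age in OL-like cells (-1.79 to 1.68). Against the normal classes, the calls of Cdkn1a (-6.39 to -5.05), Trp53 (-1.53 to -0.85) and Phlda3 (3.23 to 4.18) held under all 19 alternatives. Those of Sesn2 were lost in 6 of 16, of Zmat3 in 4 of 18, of Ccng1 in 1 of 19 (thinned, -0.62), of Atm in 8 of 19 and of Rchy1 in 6 of 19, while Mdm2 was called lower in 4 of 19. Thinned to 2000 UMIs, which also leaves fewer cells and genes, this comparison called 2405 genes higher and 1641 lower, with 3 of the p53 genes. The setting with no filter on low counts shifted the median of all genes by 0.27, the others by less than 0.1. Without the mouse as a replicate block, 3792 genes were higher, 2822 lower and 6 p53 genes called. Against MOL, 988 genes were higher, 1074 lower and 2 p53 genes called when thinned, and with 1 mouse left out 752 to 2685 were higher, 900 to 2271 lower and 2 to 3 p53 genes called. For age in OL-like cells, DESeq2 called 18 genes higher and 31 lower, and without a filter edgeR called 2 and 1. For age in mural cells, whose alternatives were added after seeing the data, 490 genes were higher and 361 lower when thinned, 385 and 204 with DESeq2, and 39 to 829 and 5 to 458 with 1 mouse left out, with 0 to 2 p53 genes called. Without the Dcn cluster 2 p53 genes were called, since Cdkn1a (1.43, adjusted p = 0.0144) then passed. Cdkn1a in mural cells also passed when thinned (adjusted p = 0.0153) and without mouse 4 (0.000844). For the difference in age change, DESeq2 called 13 genes higher and 45 lower, and edgeR with 1 mouse left out 1 to 15 and 4 to 16. Cycling against other cells gave 473 higher and 377 lower when thinned, and 538 to 932 and 297 to 887 with 1 mouse left out, with 0 to 1 p53 genes called. Without the replicate block it gave 296 higher, 41 lower and 0 p53 genes (Phlda3 adjusted p = 0.398), and with 3 of the 8 cell cycle genes required 2 p53 genes, as Bbc3 (adjusted p = 0.0206) then passed. The cause of these changes was not tested. Depth limits Cdkn1a in OL-like cells (5 to 57 UMIs per mouse), Eda2r, and all sums of mouse 7's vessel and T/NK cells. With 2 mice per age, a missed threshold does not show that ages are alike.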
